A study of Homo sapiens with 6 samples.

Results

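The transcription factors that set B-cell and plasma cell identity were followed in LP-1/Cfz, a line derived from the human multiple myeloma (MM) line LP-1 and resistant to the proteasome inhibitor carfilzomib. The 10 genes were given by name as 5 plasma cell factors (IRF4, PRDM1, XBP1, IKZF1 and IKZF3) and 5 B-cell factors (PAX5, BCL6, BACH2, SPIB and POU2AF1), among 19775 genes measured. They were read by 31 of the 54613 probe sets of the array, and only probe sets annotated to a member and to no other gene were taken. RNA of 3 LP-1/Cfz samples and of 3 samples of parental LP-1 was hybridized to Affymetrix U133 Plus 2.0 arrays, with an array for each. LP-1/Cfz cells were resistant to 12 nM carfilzomib and had been without the drug for 1 week when they were profiled, while LP-1 cells had never been selected. Both grew in RPMI medium with 4% serum per the labels, a share that differs from the one in the study's methods. LP-1/Cfz is a single resistant line, so that a difference from LP-1 is that of 1 derivative.

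The authors' values are log2 values centred per probe set on an unstated baseline, with array medians near 0. Differences between arrays can thus be read, but not how abundant a transcript is, and whether LP-1 cells hold a given factor at all was not measurable. No level was set against that of another probe set or gene. LP-1/Cfz replicate 3 stood apart, since the interquartile range of its values was 0.338 and the other 5 arrays had 0.230 to 0.264. As the labels do not say whether the triplicates came from separate cultures, p-values measure only the spread among these 6 samples, and that spread may be technical.

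In B-cell development PAX5 holds B-cell identity, and BCL6 and BACH2 keep activated B cells in the germinal centre stage, in part by repressing PRDM1. PRDM1 (Blimp-1) in turn shuts the B-cell program down, IRF4 is needed for plasma cell formation and MM cell survival, and XBP1 expands the secretory apparatus. IKZF1 (Ikaros) and IKZF3 (Aiolos) are zinc finger factors that cereblon marks for degradation in the presence of immunomodulatory drugs.

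BACH2 and IKZF3 fell in LP-1/Cfz cells, 1 of the 2 XBP1 probe sets rose, and the other 7 factors did not pass the test on any probe set. A probe set or gene was called when its adjusted p in limma (Benjamini-Hochberg over all probe sets or all genes) was under 0.05. Of the 31 member probe sets, 1 was higher and 5 were lower in LP-1/Cfz cells, or 19.4%, where 11.0% of all probe sets were called, 4.25% higher and 6.76% lower. After averaging the probe sets of each gene, 0 of the 10 members were higher and 2 were lower, or 20.0%, beside 16.7% of 19775 genes (6.72% higher and 10% lower). The share of members called was thus close to that of genes at large. The median log2 fold change of the 10 genes was 0.0133, and that of all genes was 0.0172. The 5 plasma cell factors and the 5 B-cell factors each had 1 called gene, IKZF3 and BACH2. The groups did not overlap on 12 of the 31 probe sets, beside 30.7% of all probe sets, and for 6 of the 10 genes, beside 35.9% of all genes. Only 1 member probe set, of BACH2, changed by a fold of 1.7 or more, as did 1.59% of all probe sets.

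**Figure D1:**
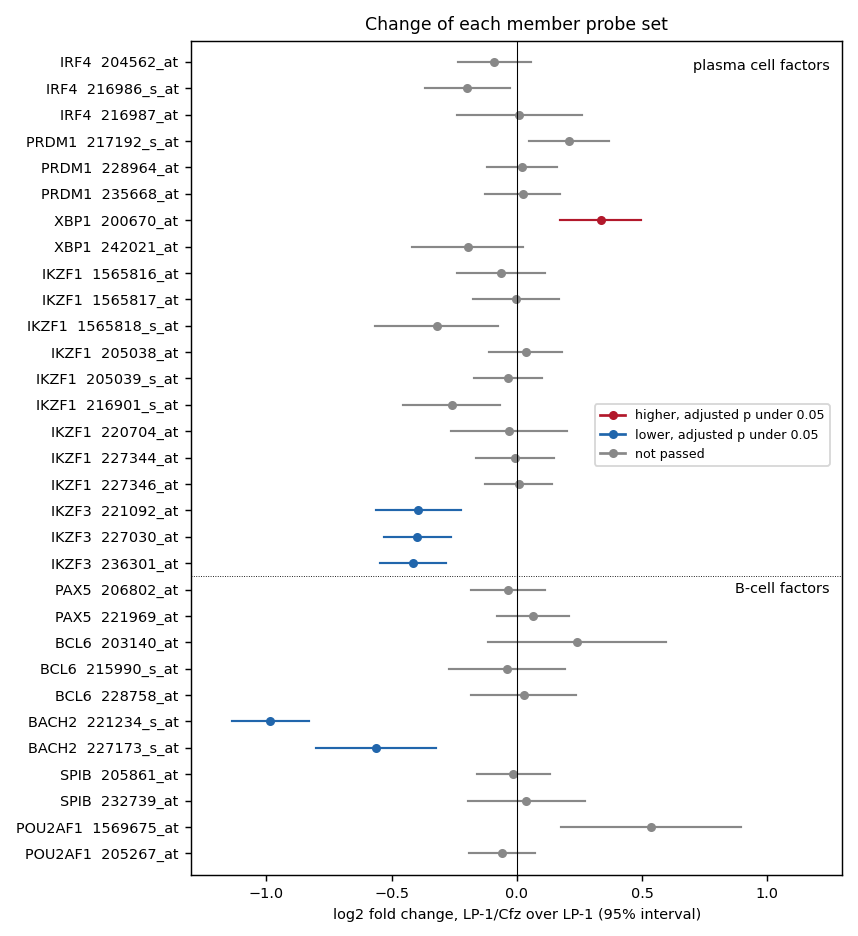
Log2 fold change of each of the 31 member probe sets, LP-1/Cfz over LP-1, with its 95% interval from limma. Points right of 0 are higher in LP-1/Cfz cells. Both BACH2 and all 3 IKZF3 probe sets lie left of 0, 1 XBP1 probe set lies right of it, and the grey ones did not pass after adjustment.

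BACH2, a bZIP repressor that pairs with small MAF proteins, had the largest change among the members. On probe set 221234_s_at the log2 values were -0.53, -0.46 and -0.50 in LP-1/Cfz cells, against 0.42, 0.58 and 0.46 in LP-1 cells. The groups were far apart and the spread within each was small. The log2 fold change was -0.98 (standard error 0.0664, 95% interval -1.14 to -0.83, adjusted p = 9.86e-05 from limma), so that the LP-1/Cfz signal was 50.5% of that in LP-1 cells. On the other probe set, 227173_s_at, the values were -0.37, -0.13 and -0.46 in LP-1/Cfz cells, against 0.22, 0.38 and 0.12 in LP-1 cells. Here too the groups did not overlap, with a smaller change of -0.56 (standard error 0.104, adjusted p = 0.0118). Without LP-1 replicate 2 this probe set had -0.49 with an adjusted p of 0.0502. The change of the first probe set exceeded that of the second by 0.42 on the log2 scale, a difference that did not pass a test across all genes with several probe sets (adjusted p = 0.0588 from limma). At the gene level BACH2 averaged -0.41 ± 0.0974 in LP-1/Cfz cells and 0.37 ± 0.102 in LP-1 cells (SD, n = 3 each), or -0.77 as the log2 fold change (95% interval -0.94 to -0.60, adjusted p = 0.000371 from limma). It was called with any 1 of the 6 arrays left out. In bulk RNA, fewer expressing cells and less RNA per cell cannot be told apart.

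The promoter window of BACH2 is shown because BACH2 changed most. It lies at chr6:90296794-90297093 on the minus strand of GRCh38.p14 and runs from 250 bases before to 50 bases after the RefSeq start. Capitals mark a CRE (TGACGTCA), the palindrome bound by CREB and ATF factors, whose first base lies 82 bases before the start.
BACH2: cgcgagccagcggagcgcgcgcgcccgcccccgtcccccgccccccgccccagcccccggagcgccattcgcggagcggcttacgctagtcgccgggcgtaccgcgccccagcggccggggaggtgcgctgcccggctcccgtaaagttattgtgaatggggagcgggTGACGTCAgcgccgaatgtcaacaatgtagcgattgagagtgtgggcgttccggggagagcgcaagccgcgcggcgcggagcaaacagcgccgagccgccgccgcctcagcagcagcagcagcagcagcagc
A CRE stands in 1.85% of the 35116 windows of this length in the RefSeq table.

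IKZF3 was lower on all 3 of its probe sets, by nearly the same amount on each. On probe set 236301_at the log2 values were -0.33, -0.32 and -0.31 in LP-1/Cfz cells and 0.0696, 0.0817 and 0.14 in LP-1 cells. On 227030_at they were -0.38, -0.35 and -0.42 in LP-1/Cfz cells and 0.0033, -0.0033 and 0.0314 in LP-1 cells. On 221092_at they were -0.23, -0.11 and -0.28 in LP-1/Cfz cells and 0.19, 0.11 and 0.25 in LP-1 cells. On all 3 probe sets the groups did not overlap, as was so for 30.7% of all probe sets. The log2 fold changes were -0.41 (adjusted p = 0.00342), -0.40 (adjusted p = 0.00411) and -0.39 (adjusted p = 0.0122 from limma). The test of a difference in change between the 3 probe sets was not passed by any (lowest adjusted p = 0.928). The call of 221092_at was lost without LP-1 replicate 1 (adjusted p = 0.0524) or replicate 3 (adjusted p = 0.0592). At the gene level IKZF3 had -0.40 (standard error 0.0499, adjusted p = 0.0014), or 75.7% of the LP-1 signal.

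IKZF1, a close relative of IKZF3, has 9 probe sets on the array, and 0 of them passed the test. Its log2 fold changes ran between -0.32 and 0.0349, with a gene-level value of -0.0751 (95% interval -0.20 to 0.0497, adjusted p = 0.404). For 2 of the 9 the groups did not overlap, beside 30.7% of all probe sets, and both were lower in LP-1/Cfz cells. Probe set 1565818_s_at had values of -0.051, -0.14 and -0.42 in LP-1/Cfz cells, against 0.0559, 0.051 and 0.24 in LP-1 cells (log2 fold change -0.32, adjusted p = 0.106). Probe set 216901_s_at had -0.0433, -0.15 and -0.33 in LP-1/Cfz cells, against 0.11, 0.0433 and 0.0987 in LP-1 cells (log2 fold change -0.26, adjusted p = 0.0957). On both, LP-1/Cfz replicate 3, the array with the widest spread, was the lowest. Among the other family members, IKZF5 fell (log2 fold change -0.32, adjusted p = 0.00937), with 1 of its 2 probe sets called, while IKZF4 (-0.17, adjusted p = 0.116) and IKZF2 (-0.019, adjusted p = 0.868) did not pass. CRBN (cereblon), added to the named genes after its value was seen, had a log2 fold change of -0.0245 (95% interval -0.14 to 0.0881, adjusted p = 0.782).

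**Figure D2:**
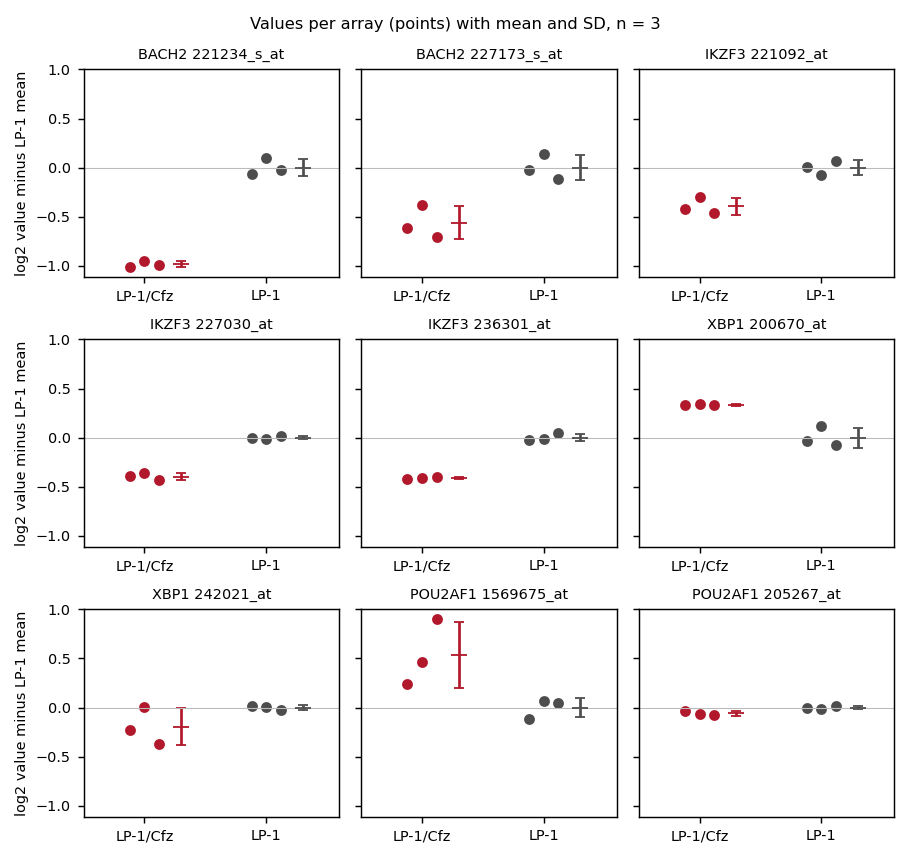
Array values of the BACH2, IKZF3, XBP1 and POU2AF1 probe sets, each set to the mean of its LP-1 arrays (log2 scale). Points are the arrays of replicates 1 to 3, and the bars beside them are means with their SD (n = 3). BACH2 and IKZF3 are lower in LP-1/Cfz cells on each of their probe sets, while XBP1 and POU2AF1 each have a probe set with higher and one with lower LP-1/Cfz means.

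XBP1, whose mRNA is spliced by IRE1 during the unfolded protein response, gave unlike values on its 2 probe sets. On 200670_at the log2 values were -0.0904, -0.0772 and -0.0933 in LP-1/Cfz cells, against -0.46, -0.31 and -0.50 in LP-1 cells. All 3 LP-1/Cfz arrays were above all 3 LP-1 arrays, and this probe set rose by 0.33 (standard error 0.0696, 95% interval 0.17 to 0.50, adjusted p = 0.0198 from limma), a fold change of 1.26. On 242021_at the values were -0.18, 0.0571 and -0.32 in LP-1/Cfz cells, against 0.0672, 0.0598 and 0.0267 in LP-1 cells. Here LP-1/Cfz replicates 1 and 3 were low and the log2 fold change was -0.20 (standard error 0.0957, adjusted p = 0.262). The changes of the 2 probe sets differed by 0.53 (standard error 0.105, adjusted p = 0.0416), a call made for 3.05% of 31839 such probe sets. At the gene level XBP1 had 0.0693 (95% interval -0.0806 to 0.22, adjusted p = 0.528). Leaving out single arrays ended the call of 200670_at in 4 of 6 fits, those without LP-1/Cfz replicate 1 (adjusted p = 0.0613) or 2 (adjusted p = 0.055) and without LP-1 replicate 1 (adjusted p = 0.084) or 3 (adjusted p = 0.0875). The difference between its probe sets was likewise lost in 5 of 6, with adjusted p values up to 0.16. It was kept without LP-1/Cfz replicate 2.

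The window at the first RefSeq start of XBP1, chr22:28800520-28800819 on the minus strand of GRCh38.p14, is shown for the element that ATF6 uses to raise XBP1 transcription during ER stress. Capitals mark the ER stress response element ERSE (CCAAT and CCACG with 9 bases between them), whose first base lies 52 bases before the start.
XBP1: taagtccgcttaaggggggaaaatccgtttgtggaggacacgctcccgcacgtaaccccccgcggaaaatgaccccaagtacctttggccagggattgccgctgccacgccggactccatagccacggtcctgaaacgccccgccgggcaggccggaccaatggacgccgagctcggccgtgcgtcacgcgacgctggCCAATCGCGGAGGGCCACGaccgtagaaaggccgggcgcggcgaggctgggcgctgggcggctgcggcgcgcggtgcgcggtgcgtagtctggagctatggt
This element stands in 27 of the 35116 windows, or 0.0769%.

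IRF4 did not pass on any of its 3 probe sets. On 216986_s_at the log2 values were 0.40, 0.30 and 0.17 in LP-1/Cfz cells, against 0.49, 0.47 and 0.50 in LP-1 cells. The LP-1/Cfz values were all lower, but the log2 fold change of -0.20 (95% interval -0.37 to -0.027) had an adjusted p of 0.145. Probe sets 204562_at and 216987_at had overlapping groups and log2 fold changes of -0.0899 (adjusted p = 0.445) and 0.0103 (adjusted p = 0.968). The gene-level value of -0.0923 had a 95% interval of -0.22 to 0.031 (adjusted p = 0.298). MYC, a gene that IRF4 drives in MM cells and likewise added after its value was seen, did not pass (0.06, adjusted p = 0.49).

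PRDM1, the gene that BACH2 represses, did not pass on any of 3 probe sets. On 217192_s_at the log2 values were 0.20, 0.19 and 0.11 in LP-1/Cfz cells, against -0.0434, -0.13 and 0.0434 in LP-1 cells. The LP-1/Cfz values were all higher, but the log2 fold change of 0.21 (95% interval 0.0506 to 0.37) had an adjusted p of 0.102. Probe sets 228964_at and 235668_at had 0.0197 (adjusted p = 0.883) and 0.0231 (adjusted p = 0.871). At the gene level PRDM1 had 0.0843 (95% interval -0.0318 to 0.20, adjusted p = 0.313).

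PRDM1 has 2 RefSeq start sites in the table. The window of the second, chr6:106098691-106098990 on the plus strand of GRCh38.p14, is shown because it holds the AP-1 core (TGANTCA), the middle of the longer element that BACH2 and small MAF proteins bind. Capitals mark the match, whose first base lies 42 bases before the start. Only this core was searched for, not the longer element, and binding of BACH2 to it was not measured.
PRDM1: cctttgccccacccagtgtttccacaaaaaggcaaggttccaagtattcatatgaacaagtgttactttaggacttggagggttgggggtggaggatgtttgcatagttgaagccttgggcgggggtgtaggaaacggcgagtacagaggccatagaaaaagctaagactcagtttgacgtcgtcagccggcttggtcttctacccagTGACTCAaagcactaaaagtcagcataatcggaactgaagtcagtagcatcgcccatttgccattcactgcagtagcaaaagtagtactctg
The AP-1 core stands in 7.71% of all windows. Both strands were searched for 5 motifs, the CRE, the ERSE, the AP-1 core, the IRF pair (GAAA, 2 bases, GAAA) and the octamer (ATGCAAAT) that POU2AF1 binds with its OCT partners. No match overlapped another. The table gave 13 windows for 8 of the 10 members, and the unmatched members were IKZF3 and POU2AF1. Matches in these 13 windows were the CRE of BACH2, the ERSE of XBP1 and the AP-1 core of PRDM1 and, 77 bases before its second start, of BCL6. The IRF pair and the octamer were in 0 of the 13 windows, and stood in 3.57% and 1.77% of all windows.

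PAX5, the factor that holds B-cell identity, had 2 probe sets with log2 fold changes of -0.034 and 0.0638 and overlapping groups, and the gene-level value was 0.0149 (95% interval -0.0885 to 0.12, adjusted p = 0.862). SPIB, an ETS factor of B cells, had -0.0143 and 0.0377 and a gene-level value of 0.0117 (95% interval -0.14 to 0.17, adjusted p = 0.932). BCL6, the germinal centre repressor, had the widest gene-level standard error of the members (0.0919). On 203140_at the log2 values were -0.86, -0.68 and -0.90 in LP-1/Cfz cells, against -0.90, -0.83 and -1.43 in LP-1 cells, with LP-1 replicate 3 far below the rest. This gave a log2 fold change of 0.24 with a wide 95% interval of -0.11 to 0.60 (adjusted p = 0.395), and 0.0529 without LP-1 replicate 3. The other BCL6 probe sets had -0.0393 and 0.0273 (lowest adjusted p = 0.855), and the gene-level value was 0.0764 (adjusted p = 0.633).

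POU2AF1 (OCA-B), the B-cell coactivator of the OCT factors, had 1 probe set on which LP-1/Cfz arrays were higher and 1 on which they were lower. On 1569675_at the log2 values were 0.18, 0.40 and 0.85 in LP-1/Cfz cells, against -0.17, 0.0124 and -0.0124 in LP-1 cells. The groups did not overlap, although LP-1/Cfz replicate 3 alone was far above the others, and the log2 fold change of 0.54 (standard error 0.155) had an adjusted p of 0.0695. Leaving out single arrays gave 0.35 to 0.68, with adjusted p values of 0.0329 to 0.193. The lowest value was that without LP-1/Cfz replicate 3, and of these 6 fits only the one without LP-1/Cfz replicate 1 called the probe set. On 205267_at the values were 0.50, 0.47 and 0.46 in LP-1/Cfz cells, against 0.53, 0.52 and 0.55 in LP-1 cells, a small difference with groups that did not overlap (log2 fold change -0.0589, adjusted p = 0.587). The difference between these changes did not pass (adjusted p = 0.124), nor did the gene-level value of 0.24 (95% interval 0.0483 to 0.43, adjusted p = 0.0916), which was 0.15 without LP-1/Cfz replicate 3.

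Of the other genes on the array, those whose 6 gene-level values ran closest to IKZF3, after centring each gene, were TYMS, the thymidylate synthase, and CHST12, a chondroitin sulfotransferase. Their root mean square differences from IKZF3 over 6 arrays were 0.0149 and 0.0181 on the log2 scale, and their log2 fold changes were -0.37 and -0.38. Closest to BACH2 were ZBTB8A, a zinc finger gene, and ANKRD33B, at 0.0467 and 0.0515, with log2 fold changes of -0.74 and -0.73.

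The gene lists below were chosen with earlier results of these data known, so that their called shares cannot show an excess over all genes. Among other transcription factors of the B-cell and plasma cell lineage, 1 of 31 measured genes was higher, 11 were lower and 19 did not pass. This was 38.7% called, beside 16.7% of all genes, with a median log2 fold change of -0.0778. The genes that fell most were RUNX3, a Runt factor of lymphocytes (log2 fold change -1.15, adjusted p = 2.43e-05), ID3, an inhibitor of E proteins (-0.98, adjusted p = 0.000173), MYB, a factor of progenitor cells (-0.91, adjusted p = 8.04e-05), and ETS1, which restrains plasma cell differentiation (-0.81, adjusted p = 0.00053). The single gene that rose was ID2, another inhibitor of E proteins (0.44, adjusted p = 0.0074). Relatives of the members that did not pass were IRF8 (0.18, adjusted p = 0.0709), POU2F2, an OCT partner of POU2AF1 (-0.12, adjusted p = 0.281), and the ETS factors SPI1 (-0.056, adjusted p = 0.727) and SPIC (-0.15, adjusted p = 0.252). The IRF family members IRF2 (-0.69, adjusted p = 0.00134) and IRF1 (-0.44, adjusted p = 0.00134), named after their values were seen, fell. Without LP-1/Cfz replicate 3, 4 genes of this list were higher.

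Of 29 measured genes of partner proteins of the members, 3 were higher and 5 lower (27.6%, beside 16.7% of all genes). The median log2 fold change was -0.0171. CUL4B, a cullin related to the CUL4A of the cereblon ligase, rose (log2 fold change 0.75, adjusted p = 0.00012) and was called on all 4 of its probe sets. CUL4A itself, given after its value was seen, did not pass (0.0422, adjusted p = 0.629). Of the AP-1 subunits, JUN (0.32, adjusted p = 0.00865) and JUND (0.21, adjusted p = 0.0424) rose, whereas JUNB (-0.30, adjusted p = 0.0186) fell. KDM2B, a demethylase of the BCOR complex that BCL6 recruits, fell (-1.03, adjusted p = 2.13e-05) on its single probe set. PCGF1, another BCOR complex subunit (-0.19, adjusted p = 0.0383), and the histone deacetylase HDAC1 (-0.17, adjusted p = 0.042) also fell. JUN was called on 2 of its 4 probe sets, JUND on 1 of 4 and PCGF1 on 1 of 2. HDAC1 has 1 probe set, which did not pass over all probe sets. BACH1, the relative of BACH2, did not pass (0.13, adjusted p = 0.145). With single arrays left out, JUND and PCGF1 lost their calls in 5 of 6 fits, HDAC1 in 6 and JUNB in 2, and the lower count was 1 to 3.

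Among 29 measured B-cell genes that PAX5 supports or that plasma cells silence, 3 were higher and 3 lower (20.7%, beside 16.7% of all genes). The median log2 fold change was 0.0212. BLNK, the adaptor of the B-cell receptor (log2 fold change 1.28, adjusted p = 1.11e-05), CR2, the complement receptor CD21 (0.43, adjusted p = 0.00669), and CD79A, a chain of the B-cell receptor (0.26, adjusted p = 0.029), rose. CIITA, the master regulator of MHC class II genes (-1.13, adjusted p = 2.26e-05), the kinase BLK (-0.83, adjusted p = 0.00345) and SWAP70, a signalling protein of B cells (-0.33, adjusted p = 0.00388), fell. CR2, CD79A and BLK were each called on 1 of their 2 probe sets. CD79A lost its call in 5 of 6 fits with an array left out. Without the _x_at and _s_at probe sets 0 genes of this list were higher, as CR2 then had 0.11 and CD79A 0.099, and BLNK has no probe set of another kind.

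Plasma cell genes moved in both directions, with 7 higher and 6 lower of 21 measured (61.9%, beside 16.7% of all genes). The median log2 fold change was 0.0824. SSR4, a subunit of the translocon-associated complex (log2 fold change 0.45, adjusted p = 0.000628), MZB1, a chaperone of immunoglobulin assembly (0.39, adjusted p = 0.00182), SDC1 (CD138), the surface proteoglycan of plasma cells (0.38, adjusted p = 0.00243), and TNFRSF17 (BCMA) (0.27, adjusted p = 0.0123) rose. SLAMF7 (CD319) (-2.17, adjusted p = 9.55e-07), CD38 (-1.07, adjusted p = 2.09e-05), FKBP11, a secretory prolyl isomerase (-0.55, adjusted p = 0.000226), and LAX1, a lymphocyte adaptor (-0.48, adjusted p = 0.00369), fell. TNFRSF17 lost its call in 2 of 6 fits with an array left out, and without LP-1 replicate 3 the higher count was 4.

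Of 36 measured genes of the IRE1 and XBP1 axis, 1 was higher, 7 were lower and 28 did not pass. This was 22.2% called, beside 16.7% of all genes, with a median log2 fold change of -0.0404. SEL1L, an adaptor of ER-associated degradation, fell (log2 fold change -0.56, adjusted p = 0.000382) and was called on all 4 of its probe sets. HSPA5 (BiP) (-0.36, adjusted p = 0.00334), DNAJB9, a co-chaperone and XBP1 target (-0.33, adjusted p = 0.00879), and SEC61B, a translocon subunit (-0.32, adjusted p = 0.00756), fell as well. DNAJB9 was called on all 3 of its probe sets, HSPA5 and SEC61B on 1 of 2 each. ATF6, an ER stress sensor, was the 1 higher gene (0.18, adjusted p = 0.0442), with 0 of its 4 probe sets called. ATF6 lost its call in 5 of 6 fits with an array left out. The sensor IRE1 itself (ERN1), given after its value was seen, did not pass (-0.16, adjusted p = 0.0568).

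Of 12 measured genes that BCL6 represses in germinal centre B cells, 5 were higher and 4 lower (75.0%, beside 16.7% of all genes). The median log2 fold change was -0.0081. The cell cycle inhibitors CDKN1A (log2 fold change 0.61, adjusted p = 0.000577) and CDKN1B (0.51, adjusted p = 0.000823) and the cyclin CCND2 (0.40, adjusted p = 0.00104) rose, as did ID2, which is also on the list of lineage factors. The adhesion receptor CD44 (-1.49, adjusted p = 4.42e-06), the survival factor BCL2 (-1.21, adjusted p = 2.3e-05), NFKB1 (-0.35, adjusted p = 0.00303) and the checkpoint kinase CHEK1 (-0.19, adjusted p = 0.0457) fell. CD44 was called on 8 of its 13 probe sets, BCL2 on 2 of 4 and CHEK1 on 1 of 4. CHEK1 lost its call in 5 of 6 fits with an array left out.

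**Figure D3:**
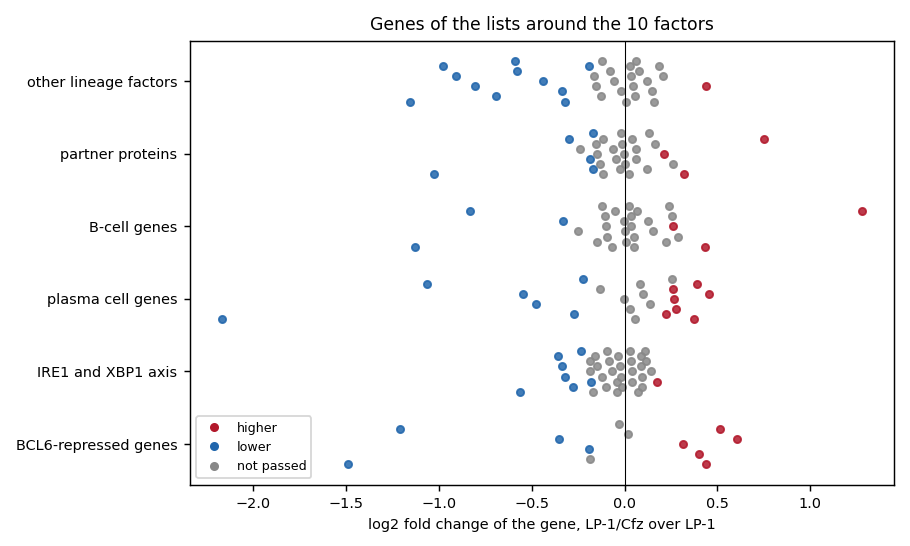
Log2 fold change of each measured gene in 6 lists around the factors, LP-1/Cfz over LP-1. Each point is 1 gene, spread vertically only for legibility, and coloured points passed the test over all genes. The lineage factors called are lower but for ID2, and the plasma cell genes called lie on both sides of 0.

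Markers of cell types other than plasma cells were measured as a check. Of 10 T and NK cell markers, 2 were called (20.0%, beside 16.7% of all genes). CD8A was higher (log2 fold change 0.34, adjusted p = 0.0401) and GNLY lower (-0.30, adjusted p = 0.0134), though 0 of their probe sets passed over all probe sets. With an array left out CD8A lost its call in 5 of 6 fits and GNLY in 2. The mean log2 value of the 10 T and NK cell markers was -0.0746 to 0.12 on LP-1/Cfz arrays and -0.0359 to -0.024 on LP-1 arrays. Of 10 myeloid and 10 stromal markers, 0 were called. Of 7 measured erythroid markers, 3 were lower (42.9% called, beside 16.7% of all genes). These were the globins HBD (-2.07, adjusted p = 4.19e-07) and HBB (-0.87, adjusted p = 2.93e-05) and TFRC, the transferrin receptor of dividing cells (-0.53, adjusted p = 0.000912). The other 4 did not pass, with log2 fold changes of 0.14 for ALAS2, 0.0491 for AHSP, -0.13 for KLF1 and -0.14 for EPOR. Of the 5 EPOR probe sets, 2 were called lower. The mean of all 7 erythroid markers was -0.0215 to 0.0831 on LP-1/Cfz arrays and 0.49 to 0.54 on LP-1 arrays. Globin genes are near-identical, so that a probe set may read more than one of them, and without the _x_at and _s_at probe sets HBB had 0.11 (adjusted p = 0.255). The part of these transcripts in the changes of BACH2 and IKZF3 was not tested.

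Genes that lie next to the members on their chromosomes were counted as well. Of 192 measured genes within 10 places on either side of a member in the RefSeq order, 10 were higher and 12 lower, or 11.5%, beside 16.7% of all genes. IKZF3 had 0 called among its 20 neighbours and BACH2 had 1, which was lower. POU2AF1 had 5 of 20, each higher, with a median log2 fold change of 0.0721. Within 5 places on either side, 14 of 97 genes were called (14.4%), with 2 of 10 for POU2AF1 and 3 of 10 each for BCL6 and SPIB. PRDM1, which like BACH2 and IRF4 is on chromosome 6, had 2 of 20, both lower.

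**Figure D4:**
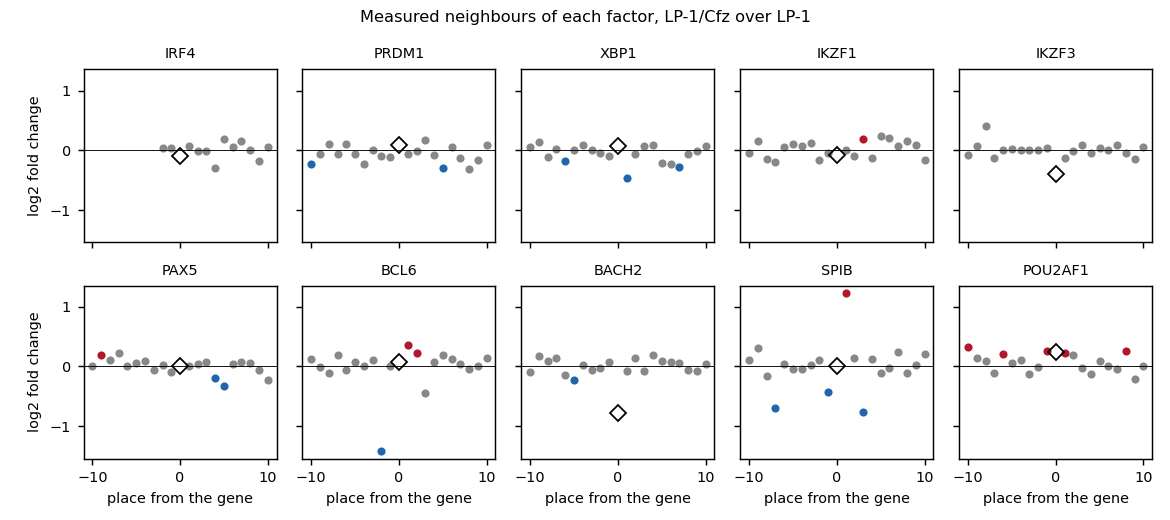
Log2 fold change, LP-1/Cfz over LP-1, of the measured genes up to 10 places on either side of each factor, with the factor as an open diamond at place 0. Red and blue points were higher and lower after adjustment over all genes. BACH2 at -0.77 lies below its 20 neighbours, of which ANKRD6 at -0.22 was called. IKZF3 at -0.40 lies below its own, of which PPP1R1B had 0.41 and did not pass.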

How the data were processed

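Affymetrix U133 Plus 2.0 arrays of 3 LP-1/Cfz and 3 LP-1 samples were used. The authors deposited log2 values of 54613 probe sets, for which the submitters' notes name RMA, with no version. Probe sets are centred on a baseline that no source read here gives. No level, signal over background or filter on dim probes could therefore be had. Precision is limited by the number of arrays. An exact two-sided permutation test of 3 against 3 cannot reach a p below 0.1.

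Gene names came from the array's annotation (41091 name 1 gene, 1801 several and 11721 none), with 41037 of the 41091 matched to RefSeq by gene identifier. The groups were contrasted with limma 3.58.1 under R 4.3.3 (lmFit and eBayes, no covariate). Benjamini-Hochberg adjustment ran over all 54613 probe sets, over 19775 genes as the mean of their single-gene probe sets, and over 31839 differences between a probe set and the others of its gene. The fits were tested on simulated data. No set test was run. The members and the lists were chosen with earlier results of these data known. The genes named were all members, up to 4 called genes per list and direction, relatives of the members and, for each called member, the 2 genes with the nearest values. Promoter windows are those of RefSeq on GRCh38.p14. Alternatives were other normalizations, array weights, robust eBayes, a minimum fold change of 1.2, a filter on spread, other probe set summaries, the replicate number as a block and each array left out.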

Additional observations from a re-analysis of the deposited data

How the results depend on the processing

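BACH2 and IKZF3 were lower at the gene level under each alternative run for them, and 0 members were higher at the gene level under any. With a minimum fold change of 1.2, BACH2 alone kept its call, so that 1 gene and 1 probe set were lower and 0 probe sets higher. A fold change of 1.7 or more left 0 higher and 1 lower probe set. Without _x_at and _s_at probe sets 1 member gene was lower, since BACH2 has no other kind. The higher probe sets numbered 2 with features of low spread left out, where POU2AF1 1569675_at was added (adjusted p = 0.0355). With 1 array left out, 0 to 1 member probe sets were higher and 4 to 5 lower. The 1 higher without LP-1/Cfz replicate 1 was that of POU2AF1, not of XBP1. Member genes whose probe sets differ in change, 1 in the report, were 0 to 1 with 1 array left out, 2 with array weights (BACH2 added, adjusted p = 0.0356), 2 with the filter on spread (POU2AF1 added, adjusted p = 0.00632) and 0 with the minimum fold change. The labels do not say whether replicate numbers pair the samples. Deviations of same-numbered arrays correlated at -0.0487, 0.126 and -0.00556, and those of differently numbered arrays at -0.118 to 0.129. With 3 arrays a group these values cannot settle whether samples were paired. With the replicate block, 2 member probe sets were higher (POU2AF1 added, adjusted p = 0.0358) and 0 genes had probe sets that differ in change.

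Of all genes, 6.72% were higher and 10% lower. In the fixed lists together, 20 of 194 measured genes were higher and 40 were lower. These counts were 13 to 20 and 29 to 36 with 1 array left out, 4 and 19 with the minimum fold change, and 10 and 26 without _x_at and _s_at probe sets, where the fold change of HBB turned to 0.11 (adjusted p = 0.255). Over all features, 6014 probe sets and 3312 genes were called, against 1312 and 624 with the minimum fold change, 2194 genes without _x_at and _s_at probe sets, and 3453, 3530 and 3395 probe sets and 2100, 2157 and 2080 genes without LP-1 replicate 1, 2 or 3. By list and over all settings, 0 to 1 XBP1 axis genes were higher and 1 to 11 lower (11 with array weights). Other lineage factors that were higher numbered 0 to 4, and genes of partner proteins that were lower numbered 1 to 5. Without _x_at and _s_at probe sets, 6 other lineage factors were lower. In that setting 0 genes of partner proteins, 0 B-cell genes and 2 BCL6-repressed genes were higher. The causes were not tested.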
